A study of Mus musculus with 12 samples.

Results

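The TGF-beta and BMP pathway genes described here are 41 genes of 18193 measured with 1 symbol. They were taken from a list of ligands, receptors, Smads, inhibitors, latency and processing genes and BMP target genes. Each is given by its probe set with the highest mean over the 12 arrays. All 41 were measured, and 35 read at or above the median probe set of the table (4.14 on the log2 scale). The 6 below it were Bmp2, Bmp5, Bmp6, Bmpr1b, Acvrl1 and Nog.

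The study transfected C3H10T1/2, a mouse embryonic cell line of mesenchymal character, and measured RNA on Affymetrix arrays. In the over-expression experiment 3 samples received siRNA-140, a mimic of miR-140, and 3 received siRNA-96 as the control. In the suppression experiment 3 samples received LNA-antimicroRNA-140, called anti-miR-140 here, and 3 received LNA-antimicroRNA-449, called anti-miR-449. LNA stands for locked nucleic acid, a modified chemistry that pairs tightly with a microRNA and keeps it from acting. All groups are the same line, and neither an untransfected nor a scrambled control was analysed here, so each comparison joins miR-140 with miR-96 or with miR-449. The time after transfection and the doses are not given in the sources used here. Replicates are not stated to be separate cultures, so p-values reflect how much these samples varied among themselves, which may be technical.

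TGF-beta, activin and BMP ligands are secreted dimers that bring a type II receptor kinase together with a type I receptor. The type I receptor phosphorylates receptor Smads, Smad2 and Smad3 for TGF-beta and activin and Smad1 and Smad5 for BMPs, which join Smad4 and act on transcription in the nucleus. In mesenchymal cells BMPs drive cartilage and bone formation, and TGF-beta drives matrix production and early cartilage condensation. In C3H10T1/2, BMP2 and BMP4 are widely used to start bone, cartilage or fat formation.

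Mature microRNAs with the names of the transfected agents are shown for reference. The labels do not name the arm, so whether the miR-140 agents carry or block the 3p arm is not given. The arrays do not measure mature microRNAs. Sequences are from RefSeq (GRCm38.p6), 5′ to 3′, with the seed (bases 2 to 8) in capitals. miR-140-3p lies at chr8:107551288-107551308 on the plus strand, miR-96-5p at chr6:30169506-30169528 on the minus strand, miR-449a-5p at chr13:113037549-113037570 and miR-449c-5p at chr13:113036008-113036028, both plus.
mmu-miR-140-3p: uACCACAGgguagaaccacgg
mmu-miR-96-5p: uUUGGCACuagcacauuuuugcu
mmu-miR-449a-5p: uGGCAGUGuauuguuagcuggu
mmu-miR-449c-5p: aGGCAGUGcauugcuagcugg
The pair of miR-449 sequences share the seed GGCAGUG. The other arm, mmu-miR-140-5p, is named only, because its sequence was not in the sources used here.

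The behaviour of the arrays touches every siRNA value below. Over all probe sets, every siRNA array except siRNA-140 replicate 2 was most like an array of the other label. siRNA-140 replicate 3 was most like siRNA-96 replicate 2, and the reverse (r = 0.9976). siRNA-96 replicate 1 and siRNA-140 replicate 1 were likewise most like each other (r = 0.9952). siRNA-96 replicate 3 was most like siRNA-140 replicate 3 (r = 0.9957). The likeness thus crosses the labels but does not show which labels, if any, are off. These r only order arrays, since probe sets are not independent. Results are given with all 12 arrays as labelled and again leaving out replicate 3 of siRNA-140 and replicate 1 of siRNA-96. The latter used either the other 10 arrays or the 4 remaining siRNA arrays alone. Since the omitted pair was chosen from its own values, the p-values without it are not independent evidence. Array medians lay between 3.95 and 4.02 in the siRNA arrays and between 4.32 and 4.38 in the anti-miR arrays. The array's controls for small-subunit ribosomal RNA averaged 10.47 in siRNA-96 replicate 1, 7.86 in siRNA-96 replicate 3 and 10.23 in anti-miR-449 replicate 1, against 5.4 to 6.75 in the others. Of 10 mesenchymal markers, 9 read at or above the median probe set in every group, with Col1a1 between 13.00 and 13.59 and only Thy1 below. On the 10 arrays 3 of the 10 were lower with siRNA-140 (Col3a1, Fn1 and Pdgfra) and none was higher. Of 5 measured leukocyte markers 3 were at or above it in every group, and of 5 endothelial markers 1 or 2 were. The leukocyte marker Ptprc read 2.01 to 2.70 and the endothelial marker Pecam1 2.38 to 3.01. The leukocyte markers Cd14, Cd68 and Cd3e read 6.59 to 7.47, 4.55 to 5.66 and 4.83 to 5.19, and the endothelial marker Kdr 4.11 to 4.46.

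The first comparison addressed the response to added miR-140, relative to added miR-96. With the arrays as labelled, none of the 41 genes passed limma's test (0% of all 18193 genes did; smallest adjusted p among the 41 = 0.88). Their log2 differences, siRNA-140 minus siRNA-96, ran from -0.43 for Smad6 to 0.37 for Tgfbr2, with a median of -0.01 against 0.0267 over all genes. At an unadjusted p under 0.05 there were 2, Tgfb1 (0.33 ± 0.12, SE) and Tgfbr1 (0.30 ± 0.13), both higher. The next smallest p were those of Tgfbr2 (0.37 ± 0.18), Bmp2 (-0.21 ± 0.11) and Acvr2a (0.21 ± 0.12). On the 6 siRNA arrays alone, 0 genes passed and 0 were at that level. The 95% interval lay within 1 log2 unit of 0 for 39 of the 41, and that of Tgfb2 ran from -1.65 to 0.85.

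**Figure D1:**
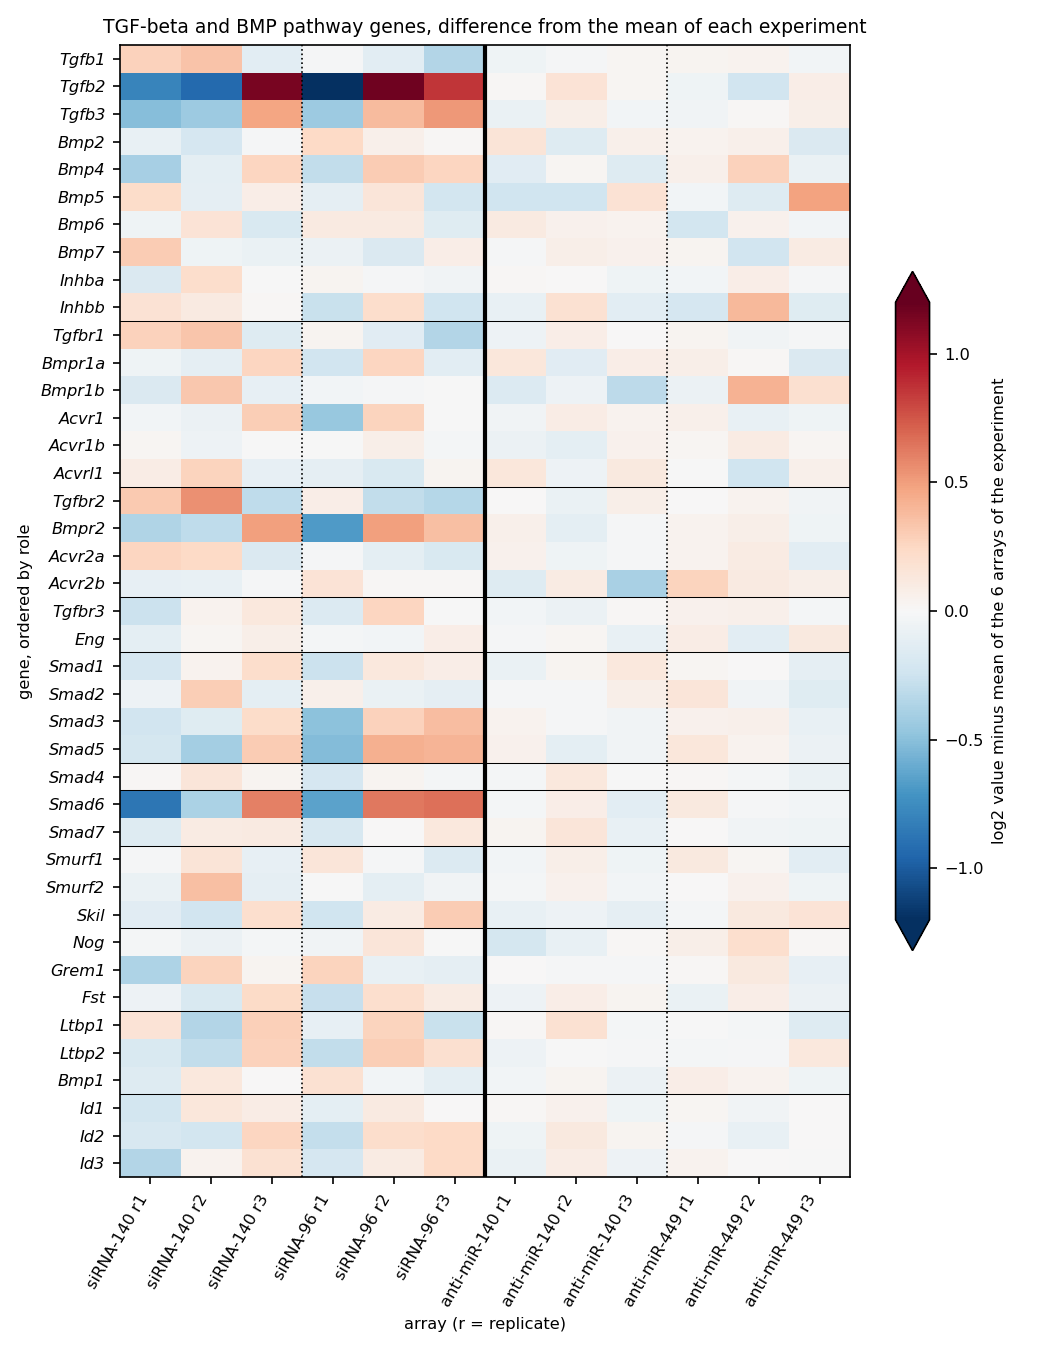
Level of each of the 41 genes on each of the 12 arrays, as log2 expression minus the gene's mean over the arrays of its experiment. Rows are genes by role, columns are arrays by labelled group, and the colour scale, which ends at 1.2 either way, gives the log2 deviation; Tgfb2, Tgfb3 and Smad6 are low in siRNA-140 replicates 1 and 2 and siRNA-96 replicate 1 and high in the other siRNA arrays.

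With siRNA-140 replicate 3 and siRNA-96 replicate 1 left out, 14 of the 41 genes passed (34.1%), where 11.1% of all genes did. All 14 were among the 35 of the 41 at or above the median level. Of all 11311 genes at or above that level, 16.9% passed. Lower with siRNA-140 were 10 genes (4.85% of all genes were called lower): Tgfb2, Tgfb3, Bmp4, Bmpr2, Smad3, Smad5, Smad6, Skil, Ltbp2 and Id2. Higher were 4 (6.27% of all genes): Tgfb1, Tgfbr1, Tgfbr2 and Acvr2a. The median of the 41 differences was -0.1, against 0.035 over all genes. On the 4 siRNA arrays alone 6 passed (14.6%, where 4.83% of all genes did): 5 lower, Tgfb2, Tgfb3, Bmpr2, Smad5 and Smad6 (2.39% of all genes), and 1 higher, Tgfbr2 (2.45%). The 14 genes had the same sign with all 12 arrays, where none passed. The 12 arrays include the 10 on which these genes were called, so the shared sign is not separate evidence. Without siRNA-96 replicate 3 as well, 7 of the 14 passed, and the other 7 (Acvr2a, Bmp4, Id2, Skil, Smad3, Tgfb1 and Tgfbr1) did not.

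**Figure D2:**
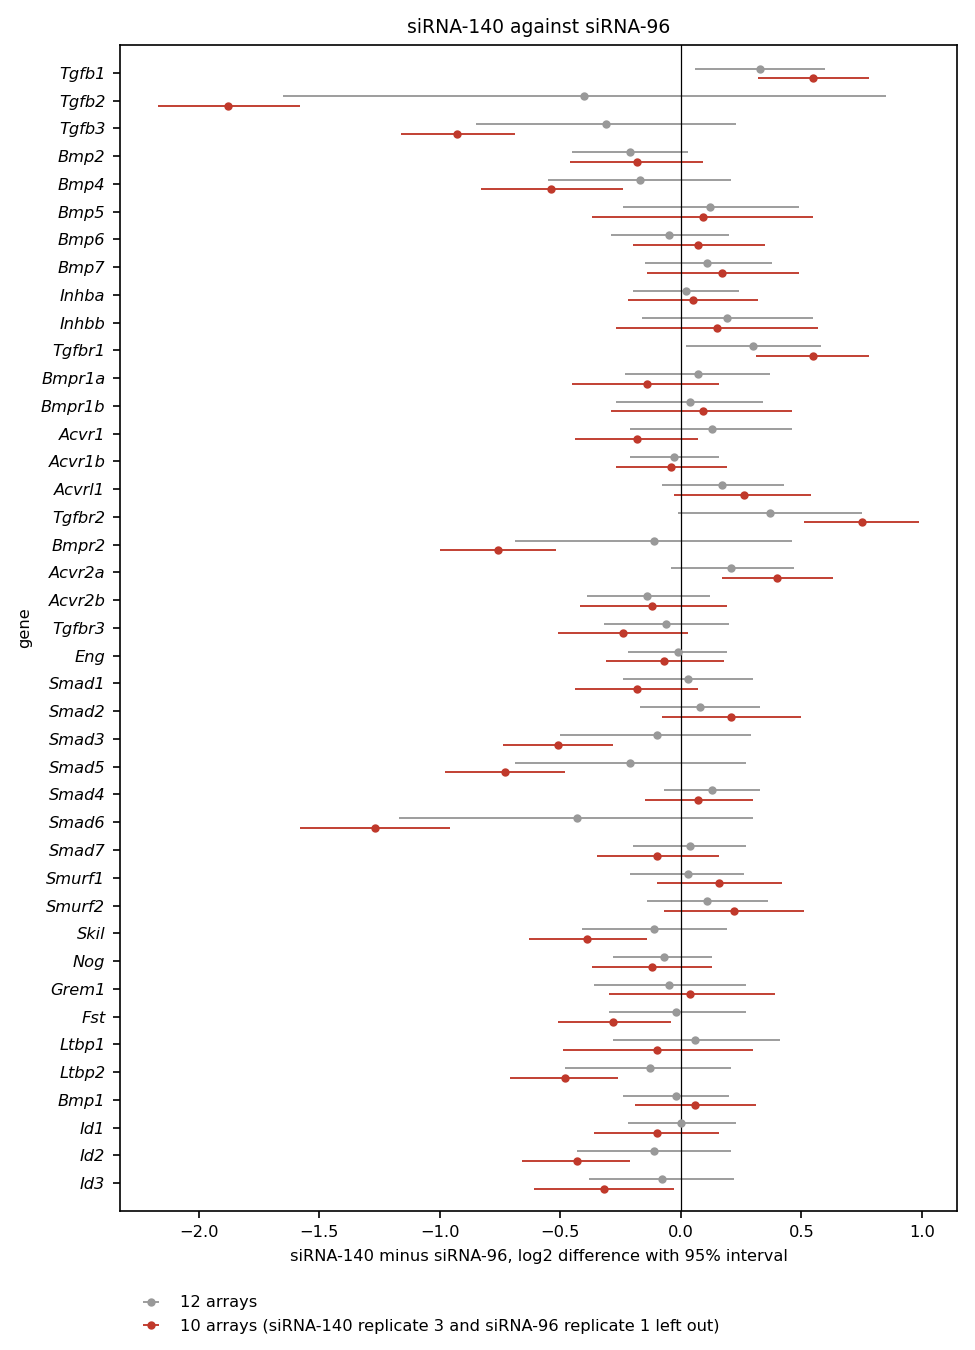
Log2 difference, siRNA-140 minus siRNA-96, of each of the 41 genes, with its 95% interval, for all 12 arrays and for the 10 arrays. With all 12 arrays Tgfb2 lies at -0.40 with the widest interval, and with 10 arrays at -1.88 (interval -2.17 to -1.58).

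Among the 10 ligand genes, 3 were lower and 1 higher on the 10 arrays. Tgfb2 encodes a TGF-beta that needs the co-receptor betaglycan for efficient binding. It read 5.75, 5.61 and 7.68 in replicates 1 to 3 of siRNA-140 (6.35 ± 1.16, SD, n = 3) and 5.12, 7.71 and 7.40 in those of siRNA-96 (6.74 ± 1.41, n = 3). The labelled groups overlapped: siRNA-140 replicates 1 and 2 and siRNA-96 replicate 1 were low, and the other 3 arrays were at 7.40 or above. The difference was -0.40 ± 0.58 (SE) with all arrays and -1.88 ± 0.14 with 10 (limma adjusted p = 2.57e-06, and 0.000135 with 4). All of its other probe sets passed in both settings, at -1.73 for 1423250_a_at, -1.65 for 1450923_at and -1.09 for 1438303_at with 10 arrays. The probe set 1423250_a_at read 5.72, 5.67 and 7.24 in the siRNA-140 arrays and 5.49, 7.38 and 7.47 in the siRNA-96 arrays. In 1450923_at the values were 5.30, 5.61 and 7.06 against 4.98, 7.12 and 7.08, and in 1438303_at they were 4.07, 4.35 and 5.18 against 3.69, 5.33 and 5.27. The same 3 siRNA arrays were low at all 4 probe sets.

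Tgfb3, the TGF-beta isoform of palate fusion, read 7.69, 7.76 and 8.67 in the siRNA-140 arrays and 7.76, 8.58 and 8.72 in the siRNA-96 arrays, again with overlapping groups and the same 3 arrays low. It differed by -0.31 ± 0.25 with all arrays and -0.93 ± 0.11 with 10 (limma adjusted p = 0.000127, and 0.0058 with 4). Bmp4, a ligand of early mesoderm and limb, read 9.83, 10.11 and 10.48 against 9.93, 10.53 and 10.48, with overlapping groups. Its difference was -0.54 ± 0.14 with 10 arrays (limma adjusted p = 0.0256), and it did not pass with 4 (0.095). Tgfb1, the isoform stored most widely in matrix, went the other way. It read 5.83, 5.90 and 5.43 in the siRNA-140 arrays and 5.54, 5.43 and 5.20 in the siRNA-96 arrays, so that the groups overlapped and siRNA-140 replicates 1 and 2 were the 2 highest of the 6. It differed by 0.55 ± 0.11 with 10 arrays (limma adjusted p = 0.00579, and 0.0778 with 4), and its second probe set gave 0.23 (adjusted p = 0.287). Bmp2, a bone-inducing ligand, was the only ligand whose labelled groups did not overlap, at 2.13, 2.02 and 2.21 in the siRNA-140 arrays and 2.46, 2.28 and 2.24 in the siRNA-96 arrays. All of these readings lie below the median probe set, and its difference did not pass in any of these settings. The other ligand genes, Bmp5, Bmp6, Bmp7 and the activin subunit genes Inhba and Inhbb, differed by 0.05 to 0.17 with 10 arrays and did not pass.

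Of the 6 type I receptor genes, Tgfbr1 passed on the 10 arrays. It encodes the TGF-beta type I receptor ALK5 and read 8.41, 8.46 and 7.98 in the siRNA-140 arrays against 8.16, 8.00 and 7.78 in the siRNA-96 arrays. siRNA-140 replicates 1 and 2 were the highest, and the groups overlapped. The difference was 0.55 ± 0.11 (limma adjusted p = 0.00664 with 10 arrays and 0.078 with 4), and the other probe sets gave 0.26 and 0.37 without passing. The BMP type I receptor genes Bmpr1a, Bmpr1b and Acvr1, the activin receptor gene Acvr1b and the endothelial receptor gene Acvrl1 differed by -0.18 to 0.26, none past the test.

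Of the 4 type II receptor genes, 1 was lower and 2 were higher on the 10 arrays. Bmpr2, the BMP type II receptor gene, read 7.67, 7.73 and 8.53 in the siRNA-140 arrays and 7.35, 8.53 and 8.39 in the siRNA-96 arrays. The groups overlapped, with siRNA-140 replicates 1 and 2 and siRNA-96 replicate 1 low. It differed by -0.11 ± 0.27 with all arrays and -0.76 ± 0.11 with 10 (limma adjusted p = 0.000649, and 0.0156 with 4). Its dimmer probe sets did not share the difference. The probe set 1419616_at read 4.85, 5.04 and 4.94 against 4.79, 5.04 and 4.69 (0.08; adjusted p = 0.835 with 10 arrays), and 1441652_at read 3.57, 3.37 and 3.51 against 3.51, 3.49 and 3.50 (-0.03; adjusted p = 0.948).

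Tgfbr2, the type II receptor that binds TGF-beta, read 9.41, 9.65 and 8.79 in the siRNA-140 arrays and 9.18, 8.80 and 8.76 in the siRNA-96 arrays. The 3 arrays that were low for Bmpr2 and Tgfb2 were the 3 highest here. The difference was 0.37 ± 0.18 with all arrays and 0.75 ± 0.11 with 10 (limma adjusted p = 0.000885, and 0.0202 with 4). A second probe set, 1425444_a_at, gave 0.58 (adjusted p = 0.0317, and 0.0516 with 4), and 1422019_at, below the median level, gave -0.04. Acvr2a, an activin type II receptor gene, read 6.32, 6.31 and 5.89 against 6.05, 5.95 and 5.88, with overlapping groups. It differed by 0.40 ± 0.11 (limma adjusted p = 0.0357, and 0.184 with 4), and its other probe set gave 0.14. Acvr2b read 4.41, 4.42 and 4.50 in the siRNA-140 arrays and 4.68, 4.53 and 4.53 in the siRNA-96 arrays, which did not overlap. Non-overlapping groups were found for 2 of the 41 genes (4.88%; Bmp2 and Acvr2b, both lower) and for 5.8% of all genes. The co-receptor genes Tgfbr3 (betaglycan) and Eng (endoglin) differed by -0.24 and -0.07 and did not pass.

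**Figure D3:**
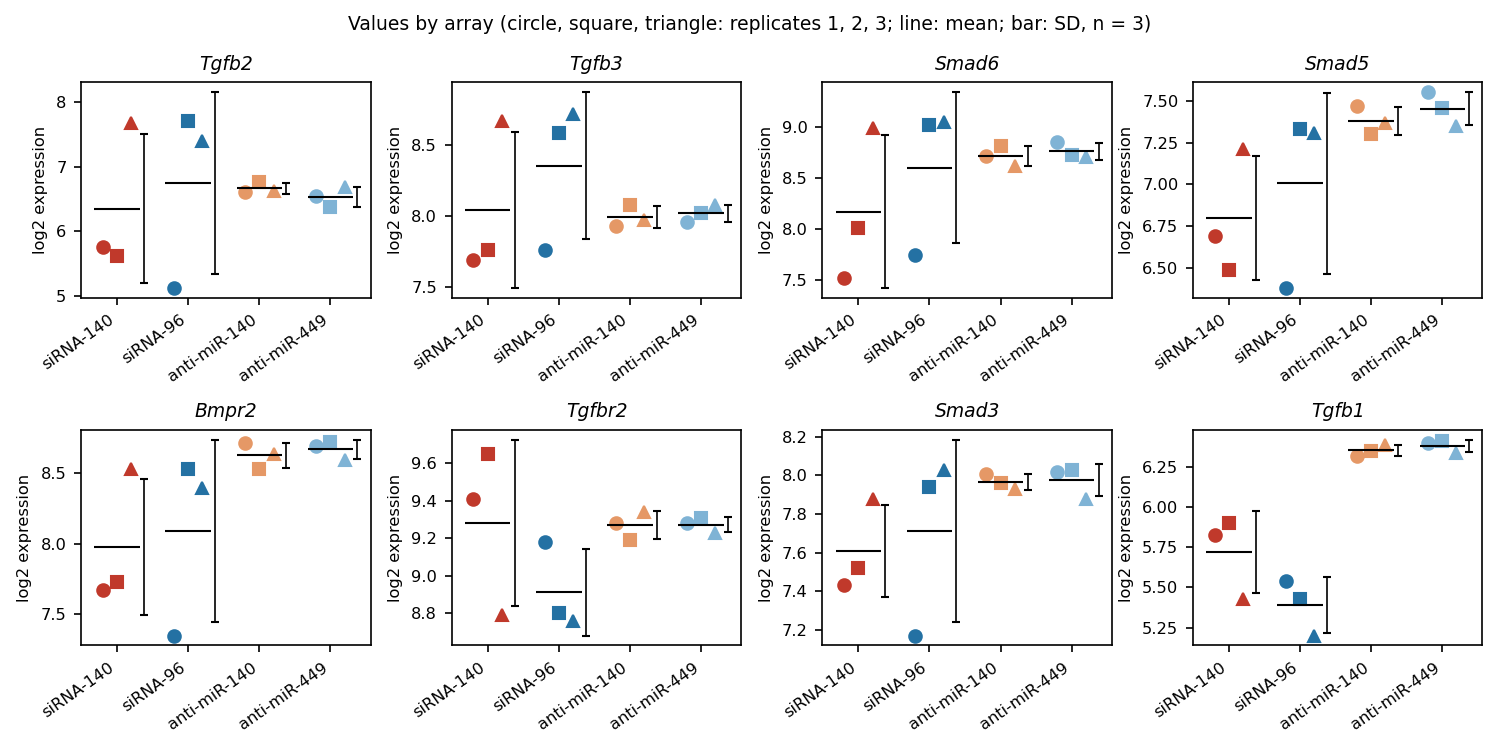
Log2 expression by array, in the 4 labelled groups, of 8 of the 14 genes that passed on the 10 arrays; each point is 1 array (circle, square and triangle for replicates 1, 2 and 3), lines are group means and bars the SD (n = 3). In Tgfb2 the siRNA arrays lie near 5.12 to 5.75 or near 7.40 to 7.71, and the 6 anti-miR arrays lie between 6.37 and 6.76.

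Among the 4 receptor Smads, 2 were lower on the 10 arrays. Smad3, the TGF-beta and activin transducer that binds DNA directly, read 7.43, 7.52 and 7.88 in the siRNA-140 arrays and 7.17, 7.94 and 8.03 in the siRNA-96 arrays. Again siRNA-140 replicates 1 and 2 and siRNA-96 replicate 1 were low and the groups overlapped. The difference was -0.10 ± 0.19 with all arrays (interval -0.50 to 0.29) and -0.51 ± 0.10 with 10 (limma adjusted p = 0.0076), and it did not pass with 4 (0.0868). Its probe set 1450472_s_at read 3.79, 4.42 and 5.18 against 4.61, 4.85 and 4.63 (-0.64 with 10 arrays; adjusted p = 0.0687). In that probe set siRNA-96 replicate 1 was not low. The probe set 1450471_at read 4.73, 4.64 and 4.67 against 4.31, 4.75 and 4.68 (-0.03; adjusted p = 0.945).

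Smad5, a BMP transducer, read 6.69, 6.49 and 7.21 in the siRNA-140 arrays and 6.38, 7.33 and 7.31 in the siRNA-96 arrays, with the same 3 arrays low and overlapping groups. It differed by -0.21 ± 0.22 with all arrays and -0.73 ± 0.12 with 10 (limma adjusted p = 0.00133, and 0.0208 with 4). Neither of its dimmer probe sets passed (-0.18, adjusted p = 0.592, and 0.12, adjusted p = 0.673), so 1 of its 3 probe sets carried the call. The other BMP transducer, Smad1, differed by -0.18, the TGF-beta transducer Smad2 by 0.21 and the shared partner Smad4 by 0.07, none past the test.

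Of the inhibitory Smads, Smad6, which mainly blocks BMP receptors, read 7.52, 8.01 and 8.99 with siRNA-140 (8.17 ± 0.75, SD, n = 3) and 7.75, 9.02 and 9.05 with siRNA-96 (8.61 ± 0.74, n = 3). The groups overlapped: the same 3 arrays were at 8.01 or below and the other 3 at 8.99 or above. It differed by -0.43 ± 0.34 with all arrays and -1.27 ± 0.14 with 10 (limma adjusted p = 0.000115, and 0.00309 with 4). Smad7, which blocks TGF-beta and BMP receptors alike, differed by -0.10 and did not pass.

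Skil encodes SnoN, a nuclear repressor of Smad activity. It read 8.54, 8.45 and 8.88 against 8.44, 8.78 and 8.98 and differed by -0.39 ± 0.11 (limma adjusted p = 0.048, and 0.233 with 4), with overlapping groups. Its second probe set gave 0.39 (adjusted p = 0.133), the opposite sign. The ubiquitin ligase genes Smurf1 and Smurf2, whose products degrade Smads and receptors, gave 0.16 and 0.22 without passing at the chosen probe sets. Smurf2 read 10.11, 10.55 and 10.08 in the siRNA-140 arrays and 10.19, 10.07 and 10.15 in the siRNA-96 arrays, which overlapped. It passed only when siRNA-140 replicate 1 was left out as well. A dimmer probe set of each did pass, at 0.55 for both (adjusted p = 0.0218 for 1428396_at and 0.0103 for 1429045_at). Bmp1, a protease that matures collagen and frees BMPs from chordin, gave 0.06 at its chosen probe set and 0.46 at 1427457_a_at (adjusted p = 0.03). None of the extracellular inhibitor genes passed: Nog (noggin) gave -0.12, Grem1 (gremlin) 0.04 and Fst (follistatin, an activin trap) -0.28.

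Of the latency genes, Ltbp2, a matrix glycoprotein gene of the latent TGF-beta binding protein family, read 8.50, 8.39 and 8.96 against 8.39, 8.98 and 8.88. It differed by -0.48 ± 0.10 (limma adjusted p = 0.0105, and 0.106 with 4), with overlapping groups. Ltbp1, which anchors latent TGF-beta in matrix, gave -0.10 and did not pass. The Id genes encode inhibitors of basic helix-loop-helix factors and are direct BMP targets. Id2 read 9.94, 9.91 and 10.39 in the siRNA-140 arrays and 9.85, 10.35 and 10.37 in the siRNA-96 arrays, with the same 3 arrays low and overlapping groups. It differed by -0.43 ± 0.10 (limma adjusted p = 0.0174), and did not pass with 4 arrays (0.141). Its second probe set, 1422537_a_at, passed in both settings (-0.65; adjusted p = 0.00547 and 0.0357), and 1453596_at did not (-0.20). Id1 (-0.10) and Id3 (-0.32; adjusted p = 0.181) did not pass. Id3 read 9.86, 10.26 and 10.40 against 10.01, 10.31 and 10.45, with overlapping groups, and passed only when siRNA-140 replicate 2 was left out as well.

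**Figure D4:**
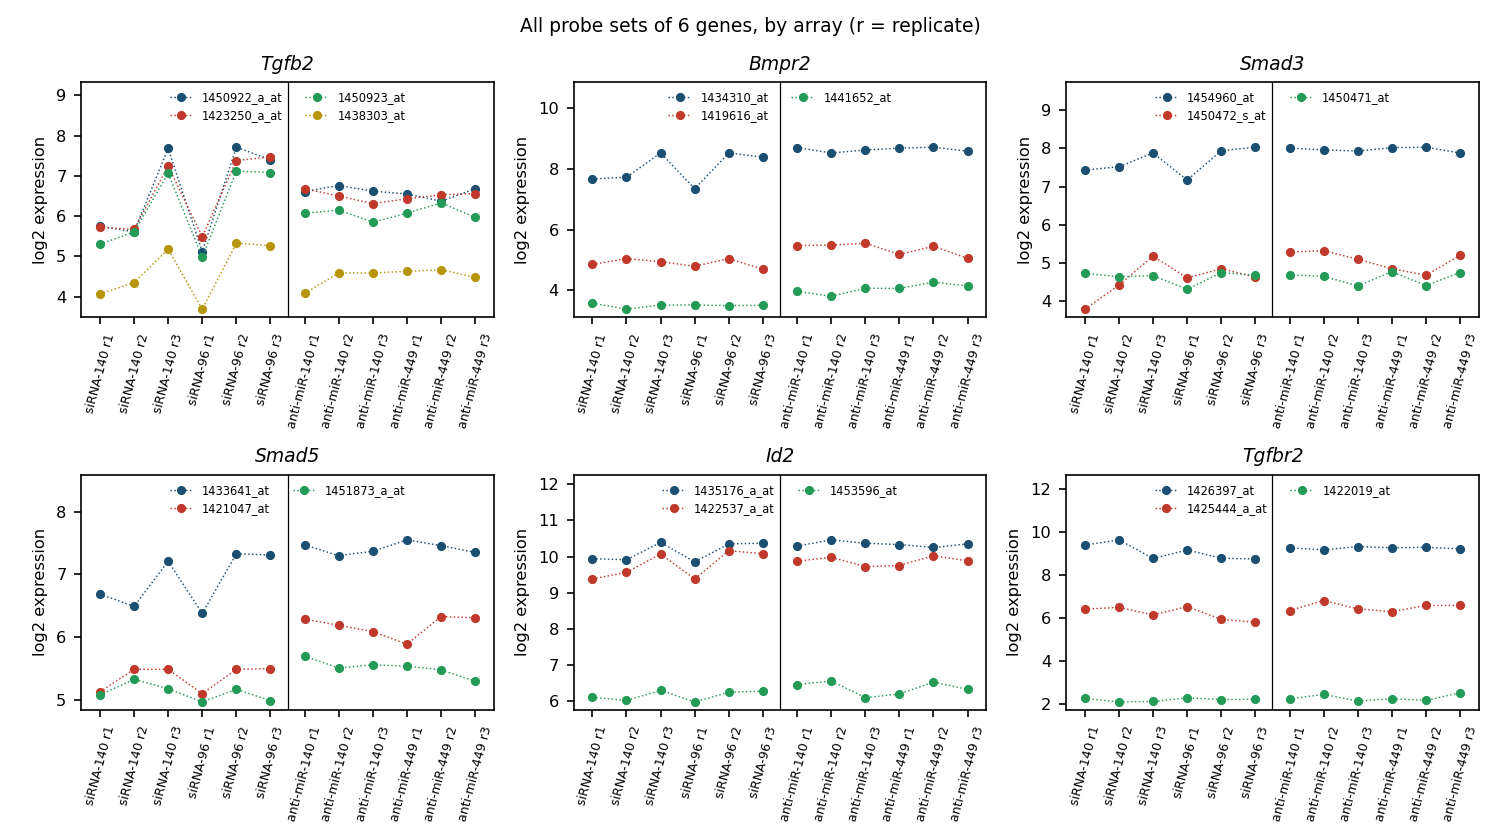
Log2 expression by array for every probe set of Tgfb2, Bmpr2, Smad3, Smad5, Id2 and Tgfbr2, with a colour for each probe set and a line between the siRNA and the anti-miR arrays. All 4 probe sets of Tgfb2 are low in siRNA-140 replicates 1 and 2 and siRNA-96 replicate 1, while the dimmer probe sets of Bmpr2 stay within 4.69 to 5.04 and 3.37 to 3.57 in the siRNA arrays.

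Across the 14 genes, 10 have more than 1 probe set, and a second one passed for 3 of them, Tgfb2, Tgfbr2 and Id2. The TGF-beta receptor genes Tgfbr1 and Tgfbr2 were higher with Tgfb1, and the ligand genes Tgfb2 and Tgfb3 lower with Bmpr2, Smad5 and Smad6.

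The stretches before the annotated starts of Tgfb2, Smad6, Bmpr2 and Tgfbr2 are shown because these genes passed on both the 10 and the 4 arrays and have 1 entry in the RefSeq promoter table (GRCm38.p6). Smad5 and Tgfb3 also passed on both, but Smad5 has 3 entries and Tgfb3 has none. Each is the 250 bases before the start on the gene's strand. Tgfb2 is at chr1:186705990-186706239 (minus), Smad6 at chr9:64022060-64022309 (minus), Bmpr2 at chr1:59764029-59764278 (plus) and Tgfbr2 at chr9:116175364-116175613 (minus). Capitals mark matches to CAGAC (the Smad box), GGCGCC (a GC-rich site of BMP Smads) and TATAAA, each sought on both strands, and no match overlaps another in the stretches shown.
Tgfb2: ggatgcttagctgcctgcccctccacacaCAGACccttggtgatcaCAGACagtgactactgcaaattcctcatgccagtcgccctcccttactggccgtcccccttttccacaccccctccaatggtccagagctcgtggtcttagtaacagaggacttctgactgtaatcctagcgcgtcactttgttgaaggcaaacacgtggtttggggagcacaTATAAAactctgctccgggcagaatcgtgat
Smad6: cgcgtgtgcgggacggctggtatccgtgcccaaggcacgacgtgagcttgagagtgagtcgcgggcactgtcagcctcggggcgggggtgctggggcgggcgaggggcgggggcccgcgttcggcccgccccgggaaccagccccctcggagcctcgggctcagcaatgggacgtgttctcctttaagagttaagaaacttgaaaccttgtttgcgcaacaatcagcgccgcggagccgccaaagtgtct
Bmpr2: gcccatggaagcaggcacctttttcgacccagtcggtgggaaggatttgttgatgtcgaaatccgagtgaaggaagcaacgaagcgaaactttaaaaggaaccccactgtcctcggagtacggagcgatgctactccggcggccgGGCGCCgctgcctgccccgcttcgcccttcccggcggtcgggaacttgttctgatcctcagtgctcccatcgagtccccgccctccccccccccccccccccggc
Tgfbr2: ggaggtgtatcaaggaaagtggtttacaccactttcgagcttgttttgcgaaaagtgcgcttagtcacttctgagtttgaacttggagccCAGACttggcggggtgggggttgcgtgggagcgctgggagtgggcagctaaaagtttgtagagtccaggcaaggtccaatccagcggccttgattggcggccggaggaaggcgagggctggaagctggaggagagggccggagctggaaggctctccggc
The Tgfb2 stretch held CAGAC 2 times and TATAAA 1 time, that of Bmpr2 held GGCGCC 1 time, that of Tgfbr2 held CAGAC 1 time, and none of the motifs was found in that of Smad6. The table has 34 entries for 28 of the 41 genes, of which 18 (52.9%) held CAGAC, 7 (20.6%) GGCGCC and 3 (8.82%) TATAAA. Over all 32851 entries of the table the shares were 42.2%, 9.59% and 12.4%. These are matches of letters, and the arrays do not measure binding.

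Other genes of the pathway, from a list of 92 of which 81 were measured, gave 0 calls with all arrays in either experiment. On the 10 arrays 19 were lower and 5 higher (29.6%, against 11.1% of all genes), and on the 4 arrays 9 and 4 (16.0%, against 4.83%). Lower were Postn, the TGF-beta-induced matrix protein periostin (-3.72 ± 0.14), Itgb8, an integrin subunit that activates latent TGF-beta (-2.15 ± 0.21), and Fbn2, a fibrillin that holds latent complexes (-1.05 ± 0.11). Bambi, a decoy receptor, was lower by -1.01 ± 0.11, Acta2, smooth muscle actin, by -0.86 ± 0.10, and Fkbp1a, whose product holds type I receptors inactive, by -0.83 ± 0.10. Bambi read 6.68, 6.53 and 7.41 in the siRNA-140 arrays and 6.56, 7.58 and 7.65 in the siRNA-96 arrays. Again siRNA-140 replicates 1 and 2 and siRNA-96 replicate 1 were low and the labelled groups overlapped. Higher were Ctdsp1, a phosphatase gene (1.02 ± 0.12), Nbl1 and Bmper, which encode secreted BMP-binding proteins (0.93 ± 0.11 and 1.15 ± 0.19), the integrin gene Itgav (0.70 ± 0.11) and the ubiquitin ligase gene Wwp1 (0.59 ± 0.12). All of these passed on the 10 arrays and also on the 4, except Wwp1 (adjusted p = 0.0691).

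Genes outside the pathway moved with the same arrays. The mean of 8 measured interferon response genes was 4.15, 4.30 and 6.47 in replicates 1 to 3 of siRNA-140 and 4.43, 7.70 and 8.24 in those of siRNA-96. It was 3.57 to 4.14 in the anti-miR arrays. All 8 were lower on the 10 arrays, with a median difference of -4.0. The mean of 14 epithelial markers was 4.16, 4.20 and 3.78 against 4.25, 3.74 and 3.79, with 5 of 14 at or above the median probe set in either group and 3 higher on the 10 arrays. These were Msln (2.52 ± 0.18), Itgb4 (2.00 ± 0.15) and Krt14 (1.49 ± 0.19). Itgb4, an integrin gene of epithelial attachment, read 7.34, 7.43 and 4.95 in the siRNA-140 arrays and 7.13, 5.36 and 5.42 in the siRNA-96 arrays, high in the 3 arrays that were low for Tgfb2. Msln, a mesothelial surface protein gene, was high in the same 3 arrays (6.28, 6.48 and 6.23). The defining epithelial marker Cdh1 read 2.58 to 3.53 in these arrays, below the median probe set, and Epcam 5.67 to 6.02. Of the mesenchymal markers, the collagen gene Col3a1 read 11.40, 11.43 and 12.52 against 11.12, 12.54 and 12.53, low in those 3 arrays, and differed by -1.12 ± 0.10 on the 10 arrays. Fn1 and Pdgfra each differed by -0.45 ± 0.11. Of 5 leukocyte and 5 endothelial markers, 1 each was higher, Itgam (0.47 ± 0.13) and Tek (0.60 ± 0.13). Itgam read 1.94 to 2.86 and Tek averaged 3.83 over the 12 arrays, both means below the median probe set. Itgam did not pass on the 4 arrays. The part of these genes outside the pathway, and of the ribosomal RNA signal, in the results above was not tested. In such bulk RNA fewer cells of a type and less RNA per cell cannot be told apart.

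The second comparison addressed the response to blocking the cells' own miR-140, relative to blocking miR-449. None of the 41 genes passed limma's test, with all 12 arrays or with the 6 anti-miR arrays alone (0% of all genes did in either). The log2 differences, anti-miR-140 minus anti-miR-449, ran from -0.36 for Bmpr1b to 0.13, with a median of -0.01 against -0.0033 over all genes. At an unadjusted p under 0.05 there were 2 with all arrays (Acvr2b and Bmpr1b) and 3 with the 6 arrays (these and Skil), all lower with anti-miR-140. On the 6 arrays alone the 95% interval lay within 1 log2 unit of 0 for all 41 genes and within a 1.5-fold change for 39.

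The genes that passed among the siRNA arrays did not pass here. Errors and intervals in this paragraph are from the 6 anti-miR arrays alone. Tgfb2 read 6.61, 6.76 and 6.62 in the anti-miR-140 arrays and 6.55, 6.37 and 6.68 in the anti-miR-449 arrays, and the groups overlapped. It differed by 0.13 ± 0.10 (interval -0.09 to 0.35, 6 arrays alone). Smad6 read 8.72, 8.82 and 8.62 against 8.86, 8.73 and 8.71, also overlapping, with a difference of -0.05 ± 0.08 (interval -0.23 to 0.14). Tgfb3 read 7.93, 8.08 and 7.97 against 7.96, 8.02 and 8.08, a difference of -0.03. Smad5 read 7.47, 7.30 and 7.37 against 7.55, 7.46 and 7.35, a difference of -0.07 ± 0.08. In both genes the groups overlapped. Tgfbr2 read 9.28, 9.19 and 9.34 against 9.28, 9.31 and 9.23, Tgfb1 6.32, 6.35 and 6.39 against 6.40, 6.41 and 6.34, and Tgfbr1 8.92, 9.06 and 8.98 against 9.01, 8.93 and 8.96. The groups of all 3 receptor and ligand genes overlapped. Bmp4 read 10.33, 10.49 and 10.31 against 10.53, 10.74 and 10.39 (-0.18 ± 0.10), and Id2 10.29, 10.46 and 10.37 against 10.33, 10.25 and 10.35. Acvr2a read 6.28, 6.18 and 6.21 against 6.27, 6.33 and 6.10, and Ltbp2 9.20, 9.25 and 9.24 against 9.23, 9.24 and 9.38. These groups overlapped too.

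Bmpr2 read 8.71, 8.53 and 8.63 in the anti-miR-140 arrays and 8.69, 8.72 and 8.59 in the anti-miR-449 arrays (-0.04 ± 0.08, interval -0.22 to 0.14, 6 arrays alone). Its dimmer probe sets leaned opposite ways, 0.28 ± 0.10 for 1419616_at (5.47, 5.49 and 5.55 against 5.18, 5.45 and 5.05) and -0.21 ± 0.09 for 1441652_at (3.96, 3.80 and 4.06 against 4.06, 4.26 and 4.14). Neither passed. Smad3 read 8.01, 7.96 and 7.93 in the anti-miR-140 arrays and 8.02, 8.03 and 7.88 in the anti-miR-449 arrays (-0.01 ± 0.07, interval -0.18 to 0.16, 6 arrays alone). Its probe set 1450472_s_at read 5.29, 5.32 and 5.10 against 4.85, 4.68 and 5.20 (0.33 ± 0.13) and 1450471_at 4.69, 4.65 and 4.40 against 4.77, 4.41 and 4.75 (-0.06 ± 0.12), neither past the test. The groups overlapped at all of these Smad3 probe sets.

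The smallest p values belonged to receptors of low signal and to Skil and Nog. Errors and intervals given for them are from the 6 anti-miR arrays alone unless said otherwise. Bmpr1b, a BMP type I receptor gene of cartilage condensations, read 2.81, 2.91 and 2.66 in the anti-miR-140 arrays and 2.90, 3.39 and 3.17 in the anti-miR-449 arrays, all below the median probe set. The groups overlapped at 1 array, and the difference was -0.36 ± 0.13 (interval -0.65 to -0.07). Acvr2b read 4.50, 4.75 and 4.26 against 4.92, 4.76 and 4.72 (-0.30 ± 0.12), also overlapping at 1 array. Skil read 8.68, 8.71 and 8.66 against 8.75, 8.89 and 8.93 (-0.17 ± 0.08, and ± 0.14 with all 12 arrays). At the chosen probe sets it was the only 1 of the 41 genes whose groups did not overlap (2.44%, where 7.72% of all genes did not). Nog read 2.75, 2.87 and 2.98 against 3.03, 3.16 and 2.98 (-0.19 ± 0.09), and Bmp6 2.83, 2.78 and 2.77 against 2.51, 2.78 and 2.69 (0.13 ± 0.09), both below the median probe set. The Id genes differed by 0.01 (Id1), 0.06 (Id2) and -0.03 (Id3). Id3 read 10.57, 10.74 and 10.59 against 10.69, 10.65 and 10.64, and Smurf2 10.45, 10.52 and 10.44 against 10.48, 10.52 and 10.42, both with overlapping groups.

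**Figure D5:**
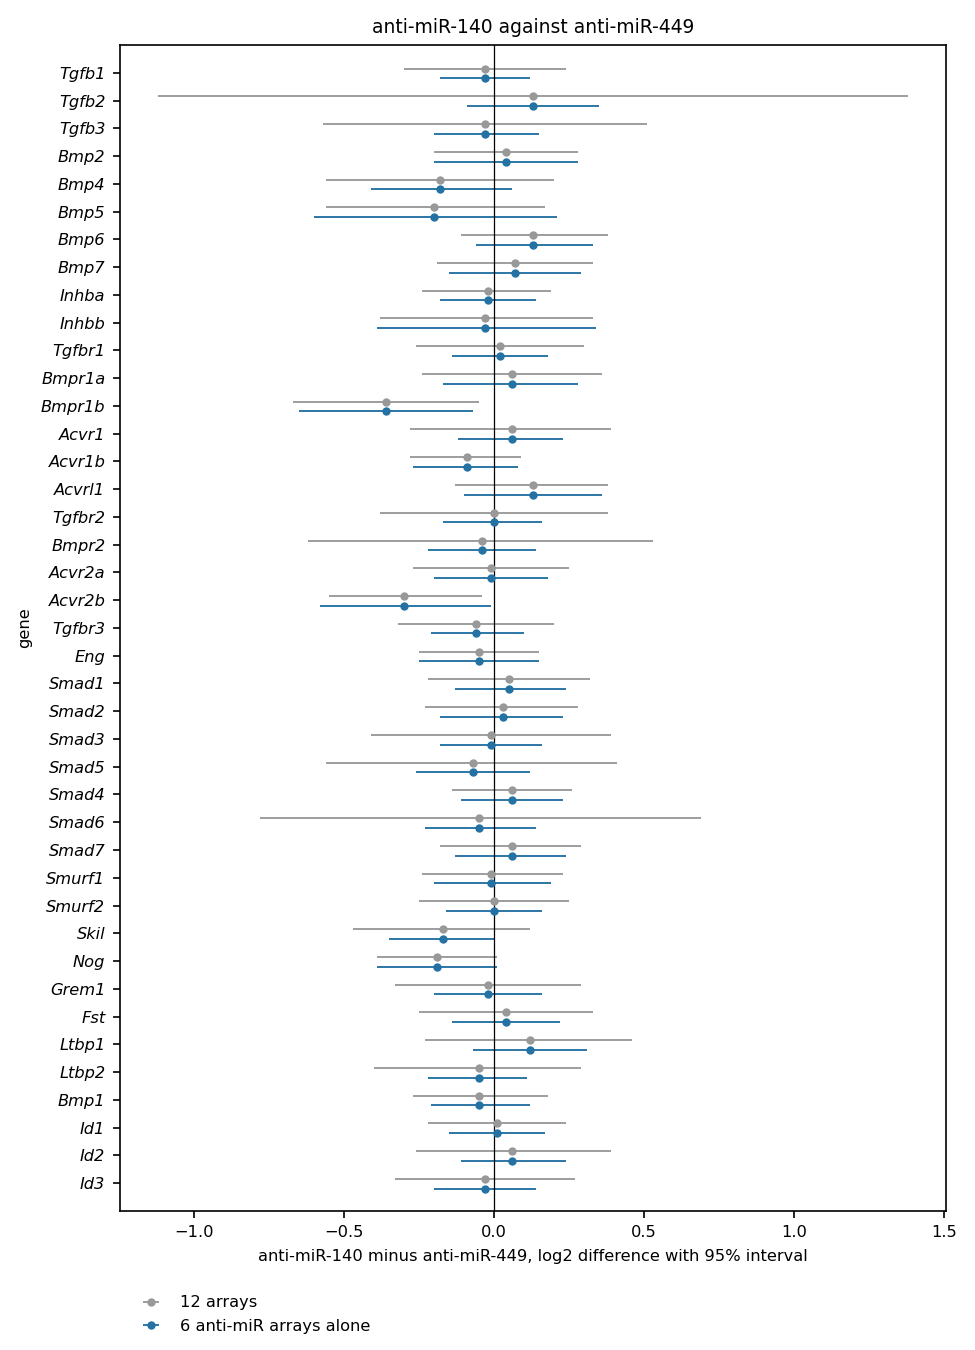
Log2 difference, anti-miR-140 minus anti-miR-449, of each of the 41 genes, with its 95% interval, for all 12 arrays and for the 6 anti-miR arrays alone. With the 6 arrays alone the interval ends run from -0.65 (Bmpr1b) to 0.36 (Acvrl1), and the intervals are wider with 12 arrays for genes that vary among the siRNA arrays, such as Tgfb2.

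Whether the log2 differences were unequal in the experiments was tested as the difference of both. The siRNA experiment adds miR-140 and the anti-miR experiment blocks it, so opposite responses to miR-140 would themselves give such a difference. The contrast also joins miR-96 and miR-449, so it does not test whether the response to miR-140 itself differed. With all 12 arrays none of the 41 genes passed (0% of all genes; smallest adjusted p = 0.997), and 0 were at an unadjusted p under 0.05 by limma. The smallest p were those of Tgfb1 (0.36 ± 0.18), Bmpr1b (0.40 ± 0.20), Bmp2 (-0.25 ± 0.16), Tgfbr1 (0.28 ± 0.18) and Tgfbr2 (0.37 ± 0.25). Bmpr1b read 2.34, 2.84 and 2.42 in the siRNA-140 arrays and 2.48, 2.50 and 2.51 in the siRNA-96 arrays, and Bmp2 2.25, 1.94 and 2.16 in the anti-miR-140 arrays and 2.14, 2.16 and 1.92 in the anti-miR-449 arrays. Both pairs of groups overlapped, at levels below the median probe set. With 10 arrays 7 passed (17.1%, against 5.73% of all genes), with a lower value for Tgfb2, Tgfb3, Bmpr2, Smad5 and Smad6 (5 genes, against 2.74% of all genes) and a higher one for Tgfb1 and Tgfbr2 (2 genes, against 3%). When each gene's probe sets were averaged, 4 passed, all lower, and Bmpr2, Smad5, Tgfb1 and Tgfbr2 did not.

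The levels of the experiments could be set side by side only after each array's median was subtracted. Of the 41 genes, 6 (14.6%, against 17.1% of all genes) then did not overlap between the 6 siRNA and the 6 anti-miR arrays. Lower in the siRNA arrays were Grem1 (-1.3), Tgfbr1 (-0.48) and Tgfb1 (-0.45), and higher were Bmp2 (0.49), Inhba (0.43) and Acvr1b (0.32). Grem1, a secreted BMP trap, read 4.59, 5.22 and 4.99 under siRNA-140, 5.22, 4.87 and 4.85 under siRNA-96, 6.62, 6.60 and 6.60 under anti-miR-140 and 6.63, 6.73 and 6.52 under anti-miR-449. The anti-miR arrays were all higher than the siRNA arrays. The experiment, its reagents and its normalization cannot be told apart here.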

How the data were processed

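The values are log2 expression values made by the authors with RMA, per the submitters' processing notes. Neither the RMA version nor whether both experiments were normalized together is given in the sources used here. Of 45101 probe sets, 45037 were tested without a filter on level, after 64 array controls had been removed. Of these, 34945 had 1 gene symbol, 932 several and 9160 none. Symbols came from the platform annotation, and 34741 matched a RefSeq gene ID (GRCm38.p6). Probe sets were fitted with limma 3.58.1 (R 4.3.3, lmFit and eBayes) as 4 group means over 12 arrays and called at an adjusted p (Benjamini-Hochberg, over all of them) under 0.05. The number of arrays limits the precision. The fit was also run on simulated arrays with known changes and independent noise. Those arrays lacked the profiles that the real siRNA arrays share across labels, so they cannot show how the fit handles such profiles. Genes named with every array's value were those called in any fit at that probe set, the 5 with the smallest p per contrast, and Smad3, Tgfb2 and Bmpr2 with all probe sets. Other pathway genes were counted, with up to 6 named each way. The members, lists and the arrays left out were chosen with earlier results of these data known. Alternatives were the compared arrays alone, a replicate block, further quantile normalization, median centring, a filter on level, leaving out arrays, an intensity trend, array weights, an unadjusted p and the mean of all probe sets.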

Additional observations from a re-analysis of the deposited data

Results flagged for a closer look

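With the 10 arrays, the siRNA difference (siRNA-140 minus siRNA-96) and the anti-miR difference (anti-miR-140 minus anti-miR-449) differed for 7 of the 41 genes by limma's test of the difference itself, where 5.73% of all genes passed. The difference of the log2 differences was -2.0 ± 0.17 (SE) for Tgfb2 (adjusted p = 3.1e-05), -1.22 ± 0.19 for Smad6 (adjusted p = 0.00218) and -0.9 ± 0.14 for Tgfb3 (adjusted p = 0.00228). It was -0.72 ± 0.14 for Bmpr2 (adjusted p = 0.0111), -0.66 ± 0.15 for Smad5 (adjusted p = 0.0245), 0.75 ± 0.14 for Tgfbr2 (adjusted p = 0.00932) and 0.58 ± 0.14 for Tgfb1 (adjusted p = 0.0331). With all 12 arrays 0 of these passed. On the 10 arrays the count was 4 with the mean of all probe sets, where Bmpr2, Smad5, Tgfb1 and Tgfbr2 did not pass, and 5 without siRNA-140 replicate 2 or without siRNA-96 replicate 3, where Smad5 and Tgfb1 did not. These p-values share the siRNA arrays, and the arrays left out, with the results above.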

How the results depend on the processing

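With all arrays as labelled, 0 of the 41 genes passed in either experiment under a fit of the compared arrays alone, further quantile normalization, median centring, the filter on level (35 of the 41 left), an intensity trend, array weights, the mean of all probe sets, the replicate number as a block or with any 1 array left out. At an unadjusted p under 0.05 there were 2 in each experiment. For the siRNA comparison the genes called became 14 on the 10 arrays and 6 on the 4 siRNA arrays alone. Those whose log2 difference was unequal between the experiments became 7. That 7 became 4 with the mean of all probe sets (Ltbp2 gained), 11 with an intensity trend or the filter on level (Id2, Ltbp2, Smad3 and Tgfbr1 gained), 10 with quantile normalization, 6 with median centring or the block (Tgfb1 lost), and 5 to 7 with 1 more siRNA array left out. Over all probe sets the siRNA count of 0 became 2292 at an unadjusted p, 4043 with 10 arrays and 1743 with 4, and ranged from 0 to 36 with 1 array left out (36 without siRNA-96 replicate 1, 25 without siRNA-96 replicate 2). For the anti-miR comparison it became 1022 at an unadjusted p.

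The count of 14 with 10 arrays became 6 with the 4 siRNA arrays alone, 13 with median centring (Acvr2a lost), 11 with the mean of all probe sets and 7 to 12 with 1 more siRNA array left out. It was 7 without siRNA-96 replicate 3. Smurf2 was gained without siRNA-140 replicate 1, and Id3 without siRNA-140 replicate 2. With the replicate number as a block it was 11 (Acvr2a, Id2 and Skil lost). After each array's group mean was subtracted, samples of the same number correlated at 0.41, -0.24 and 0.44 between the siRNA groups. Between the anti-miR groups they correlated at -0.01, 0.1 and -0.03. For siRNA samples of different number and group, r of these deviations ran from -0.68 to 0.49. These values cannot settle whether samples of the same number share a batch. The labelled comparisons had 0 calls without the block and 0 with it, so the block could remove none there. Tgfb2, Tgfb3, Tgfbr2, Bmpr2, Smad5 and Smad6 passed under every one of these settings of the 10-array comparison that kept 1 probe set per gene. All of these settings left out siRNA-140 replicate 3 and siRNA-96 replicate 1, so they cannot test that omission. Over the alternatives 78 of 896 siRNA values and 51 of 814 anti-miR values of the 41 genes changed sign. Among the values that changed sign, 0 passed before or after. With 2 arrays per group left in the siRNA comparison, and 3 elsewhere, the spread rests mostly on what the fit shares across groups and probe sets.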
